A study of Mus musculus with 6 samples.

Results

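Metallothioneins are small, cysteine-rich proteins that bind zinc and copper and scavenge oxidants. Mt1, Mt2 and Mt3 were followed here in microglia and in neural stem and progenitor cells (NSPCs) of the adult mouse subventricular zone (SVZ) after a cortical stroke. They are 3 of the 34203 rows of the count matrix, and they were chosen by name with their levels in these cells and conditions already known, the class sums at 1 day after stroke among them. Values at that time, and the ordering of cell types, are therefore given as descriptions without a test. Of the 3 members, Mt1 had 3109 unique transcript counts (UMIs) in 386 cells, Mt2 had 3516 in 323 cells, and Mt3 had 8 in 8 cells.

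All mice were adult Nestin-CreERT2:R26-yfp animals given tamoxifen, so that cells expressing the Nestin-driven recombinase, and their progeny, carried YFP. Photothrombotic ischemia (PT) was set in the cortex by Rose Bengal and cold light, and the SVZ of the same hemisphere was taken after 1 day (PT D1), after 7 days (PT D7) or from uninjured mice. The sort took CD11b+ CD45low cells for microglia and YFP+ cells for NSPCs from papain-dissociated tissue, and each of the 3 conditions had 2 mCEL-Seq2 libraries of unknown numbers of pooled mice. The authors' annotation holds 416 microglia in 5 subclusters, 222 NSPCs in 4 subclusters and 20 cells of mixed identity.

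The libraries held 74 to 147 cells and 413299 to 1020667 UMIs each. Levels are given in CPM, the UMIs of a gene scaled to 1000000 UMIs of the same cells, with exact 95% Poisson intervals that cover counting error only. The microglia markers Cx3cr1 and Csf1r had 167 to 1025 and 710 to 1276 UMIs in the 54 to 84 microglia of each library, and 0 to 7 and 1 to 23 UMIs in its 3 to 14 quiescent type B cells. The 7 and 23 UMIs were in the 4 such cells of PT D7 library 1, among 24840 UMIs. In that library 6 microglia markers summed to 1212 CPM in NSPCs, against between 174 and 396 CPM in the NSPCs of the others. In microglia they summed to between 5721 and 13972 CPM. The part of microglial RNA in the NSPC values was not tested. The 6 markers of quiescent type B cells or astrocytes summed to between 2088 and 4666 CPM in NSPCs and to between 161 and 466 CPM in microglia. Choroid plexus markers moved with condition: they summed to 10552 and 4678 CPM in the uninjured microglia and to between 196 and 617 CPM in the microglia after PT, and to 1523 and 3819 CPM against between 47.4 and 97.0 CPM in NSPCs. Their part in the metallothionein values was not tested.

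Mt1 and Mt2 are the metallothioneins of most tissues, and in the brain astrocytes are known as a main source. Their transcription is switched on by the zinc-sensing factor MTF1, which binds metal response elements near the start of the gene, and also by glucocorticoids, by STAT3 downstream of cytokines, and by oxidants. Mt3 is known as the metallothionein of the nervous system and responds little to metals. Mt4 belongs to stratified epithelia, and it had 0 UMIs in these cells.

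The 3 members lie on the plus strand of mouse chromosome 8 in the GRCm39 build, in the order Mt3, Mt2, Mt1. In the GENCODE vM39 annotation Mt3 spans 94879220 to 94881088, Mt2 spans 94898819 to 94900207 and Mt1 spans 94905710 to 94906955. The gap from Mt3 to Mt2 is 17730 bases and that from Mt2 to Mt1 is 5502 bases. The reference transcript of each has 3 exons. None of the 30-base runs of one member's transcripts occurs in those of another, so a read of that length would separate them. Of the 1128 such runs of Mt2, 29 also occur in the long non-coding RNA Gm61019 and 4 in Pip5k1a. The antisense long non-coding RNA Gm45774 overlaps Mt2 and is not a row of the matrix. It runs from 94892504 to 94900040 on the minus strand, so its annotated 3′ end lies outside Mt2. Reverse transcription was primed with polyT, that is from the tail at the 3′ end. The sources used here do not say whether strand was counted. Reads of Gm45774 within the overlap, if there were any, cannot be told apart from those of Mt2.

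The core of the metal response element was searched on both strands as TGCACNC and TGCGCNC within the 250 genomic bases before the start codon of each reference transcript, a window that includes the annotated 5′ exon sequence. Mt1 held 5 such cores, Mt2 held 4 and Mt3 held 3. Among 20893 genes with a window of the same length, 0.0574% held at least 5 cores, 0.311% at least 4, 1.25% at least 3 and 21.8% at least 1. In the 250 bases before the start of transcription in RefSeq, Mt1 held 1 core, Mt2 held 3 and Mt3 held 0. Among 32851 such windows, 1.26% held at least 3 and 21.4% at least 1. Of the cores before the start codon, which are those printed below, all but the Mt1 core at 245 bases lie past that start. The cores are printed because they are the sequence that MTF1 is known to read, and a match is a description of the letters and not a site shown to be bound. Each is printed on the plus strand with 4 bases to either side and the core in capitals, and a core that begins with G and ends with GCA lies on the minus strand.
Mt1, 245 bases before the start codon: gctgTGCACACtggc
Mt1, 220 bases before: gctcTGCACTCcgcc
Mt1, 202 bases before: aaagTGCGCTCggct
Mt1, 138 bases before: tgctGGGTGCAaacc
Mt1, 124 bases before: ccttTGCGCCCggac
Mt2, 226 bases before: ggtcGTGCGCAggcc
Mt2, 172 bases before: gggcGTGTGCAggcg
Mt2, 153 bases before: gggcGCGTGCAtggt
Mt2, 119 bases before: ctttTGCGCTCgacc
Mt3, 166 bases before: gcagTGCACACacac
Mt3, 139 bases before: ctgtGCGTGCAtagg
Mt3, 107 bases before: tgctTGCGCGCcccc
The Mt1 cores run from 94905694 to 94905821, the Mt2 cores from 94899250 to 94899363 and the Mt3 cores from 94879262 to 94879327 on chromosome 8.

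In microglia, the resident macrophages of the brain, both Mt1 and Mt2 stood higher at PT D1 than in uninjured tissue in each library. Mt1 was at 74.1 CPM (48.8 to 108) and 120 CPM (90.4 to 155) in the uninjured libraries, at 503 CPM (433 to 582) and 719 CPM (643 to 802) at PT D1, and at 115 CPM (79.8 to 161) and 155 CPM (114 to 207) at PT D7. The PT D1 intervals stand clear of the others. Mt2 was at 32.9 CPM (17.0 to 57.5) and 49.1 CPM (31.1 to 73.7) in the uninjured libraries, at 317 CPM (261 to 381) and 681 CPM (607 to 762) at PT D1, and at 30.5 CPM (14.0 to 57.9) and 87.7 CPM (57.3 to 129) at PT D7. For both genes the PT D1 libraries lay above all 4 others. The share of all genes that separate libraries in this way was not counted, here or for the cell types below. Such a separation is therefore only a description. The uninjured and PT D7 libraries overlapped for both genes.

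In NSPCs, which run from quiescent and activated type B stem cells through transit-amplifying type C cells to neuroblasts, the levels were higher than in microglia of the same library for both genes throughout. Mt1 was at 577 and 465 CPM in the uninjured libraries, at 2130 and 2946 CPM at PT D1, and at 1018 and 382 CPM at PT D7. Mt2 was at 336 and 523 CPM in the uninjured libraries, at 3035 and 4033 CPM at PT D1, and at 921 and 569 CPM at PT D7. The PT D1 libraries again stood above the others. The PT D7 libraries lay on both sides of the uninjured ones for Mt1 and above them for Mt2.

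A few cells carried much of the NSPC sums in the small libraries. Library 1 held 16 uninjured, 19 PT D1 and 15 PT D7 NSPCs, and 1 cell gave 56.7%, 45.4% and 61.9% of the Mt1 UMIs in them. In library 2, with 59, 52 and 61 NSPCs, the top cell gave 34.6%, 17.1% and 13.2%. The PT D7 value of 1018 CPM for Mt1 thus rests on 15 cells and mostly on 1 of them.

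**Figure D1:**
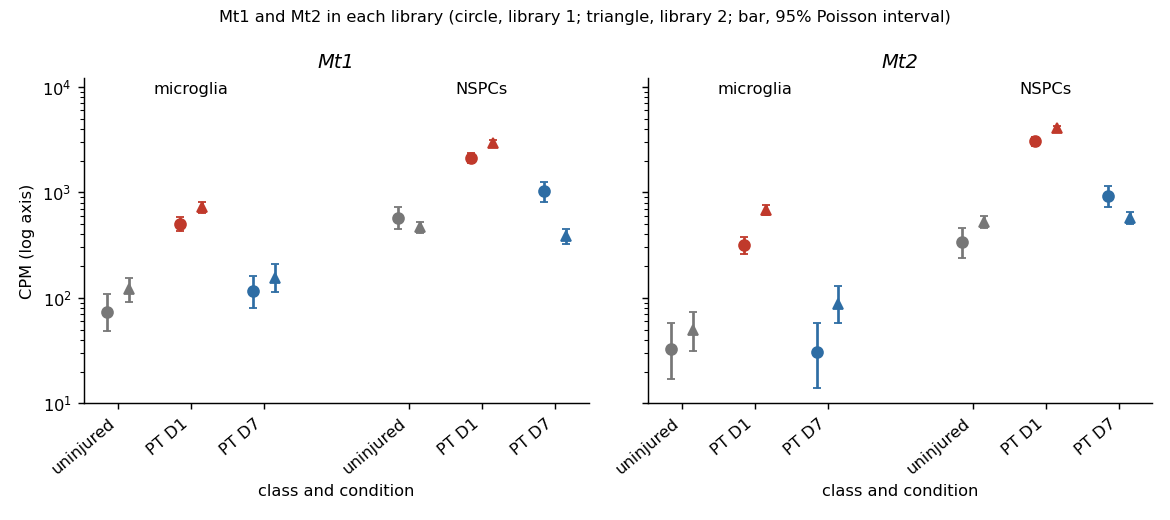
Mt1 (left) and Mt2 (right) in CPM, on a log axis, for microglia and NSPCs in uninjured, PT D1 and PT D7 libraries. Circles are library 1, triangles library 2, and bars are exact 95% Poisson intervals. In both classes the PT D1 libraries stand highest, with Mt1 at 503 and 719 in microglia and at 2130 and 2946 in NSPCs.

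The sums per library and class were fitted over all genes with edgeR's quasi-likelihood test, scaled by TMM. In microglia the log2 fold change from uninjured to PT D1 was 2.77 ± 0.30 (SE, 2 libraries per condition) for Mt1 and 3.71 ± 0.46 for Mt2. In NSPCs it was 2.25 ± 0.29 for Mt1 and 2.91 ± 0.26 for Mt2. From PT D1 to PT D7 it was -2.09 ± 0.30 and -3.00 ± 0.46 in microglia, and -2.00 ± 0.30 and -2.31 ± 0.25 in NSPCs, in the same order. These values chose the genes and carry no test. Each SE was derived from edgeR's F value, which draws on the spread of all genes. DESeq2 gave larger SEs, at PT D1 of 0.45 for Mt1 and 0.58 for Mt2 in microglia, and of 0.56 and 0.31 in NSPCs. For scale, 2.72% of the 4846 genes tested in microglia and 1.04% of the 4907 tested in NSPCs were called higher at PT D1 at an adjusted p under 0.05, and 2.1% and 0.408% were called lower at PT D7 than at PT D1. In such sums, fewer cells with a transcript and less transcript per cell cannot be told apart, and the values per cell are given separately.

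At PT D7 neither gene was called against uninjured tissue in either class (0 of 2 members in each). In simulated counts with 200 genes changed 2-fold at PT D1, the edgeR test of PT D1 against uninjured called 5.5% of them in microglia and 16% in NSPCs. Changes of that size can thus be missed. The PT D7 comparison itself was not simulated, so these rates do not measure its power. The background was 0.165% of genes called in microglia (0.103% higher, 0.0619% lower) and 0.0815% in NSPCs, all lower. In microglia the log2 fold change was 0.68 ± 0.32 for Mt1 (edgeR, adjusted p = 0.686) and 0.71 ± 0.52 for Mt2 (edgeR, adjusted p = 0.823). In NSPCs it was 0.25 ± 0.31 for Mt1 and 0.60 ± 0.26 for Mt2 (edgeR, adjusted p = 0.995 for both), and the unadjusted edgeR p of Mt2 was 0.0305, as 230 genes in that comparison also had an unadjusted p under 0.05. An exact permutation test of 2 libraries against 2 could not fall under 0.33. The sign of this difference is not firm: over 10 further random thinnings to 1000 UMIs a cell it was above 0 in 8 for Mt1 and 5 for Mt2 in microglia, and in 3 for Mt1 and 9 for Mt2 in NSPCs, and without thinning it was -0.13 for Mt2 in microglia without PT D7 library 2 and -0.44 for Mt1 in NSPCs without PT D7 library 1. The comparisons share libraries, so the PT D7 values are not independent of the PT D1 values that chose the genes. The PT D7 levels were also known when the genes were chosen. The p-values here and for the class difference below are read with that limit.

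A difference between the classes in the PT D7 change was not detectable with 2 libraries a condition. In a joint fit with the library as a block, the NSPC minus microglia difference of the log2 fold change was -0.46 ± 0.48 for Mt1 and -0.01 ± 0.44 for Mt2 (edgeR, adjusted p = 1 for both), where 0.0399% of 7514 genes were called. At PT D1 the same difference was -0.45 ± 0.44 for Mt1 and -0.60 ± 0.48 for Mt2, given without a test.

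**Figure D2:**
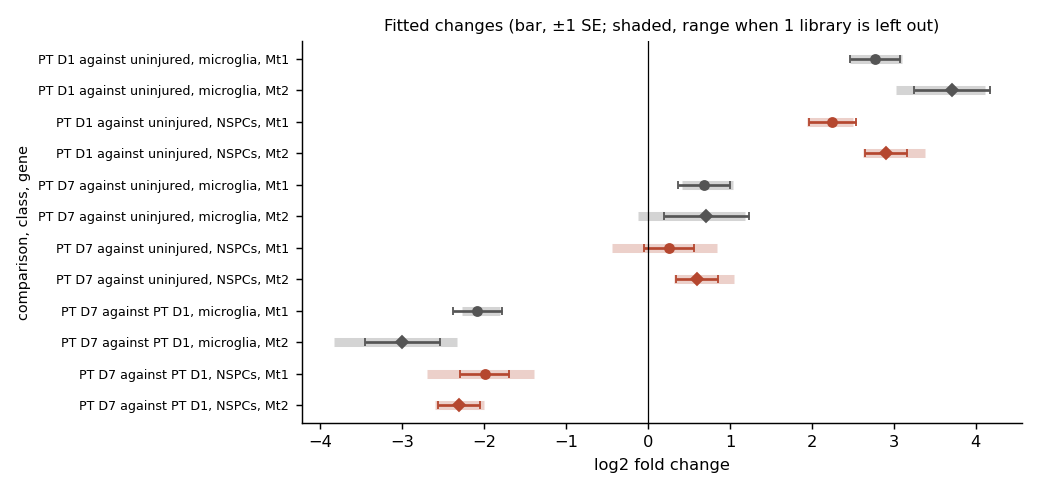
Fitted log2 fold changes of Mt1 (circles) and Mt2 (diamonds) in microglia (grey) and NSPCs (red) for the 3 comparisons. Bars are 1 SE and shaded bands are the range when 1 library is left out. The PT D1 values lie between 2.25 and 3.71, the PT D7 against uninjured values between 0.25 and 0.71.

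Among the NSPC subclusters the 2 genes stood highest in quiescent type B cells, the astrocyte-like stem cells that rest, and lowest in neuroblasts and type C cells. Over all conditions Mt1 was at 4559 CPM (4321 to 4806) in the 50 quiescent B cells, at 939 CPM (848 to 1037) in the 45 activated B cells, at 86.0 CPM (59.6 to 120) in the 47 C cells and at 78.2 CPM (54.8 to 108) in the 80 neuroblasts. Mt2 was at 4712 CPM (4470 to 4963), 2090 CPM (1953 to 2233), 195 CPM (154 to 243) and 69.5 CPM (47.6 to 98.2) in the same order. For Mt1 the C cells and neuroblasts could not be ordered, as their intervals overlap. The subclusters were drawn from all genes of these cells, so the order is a description.

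In quiescent B cells Mt1 was at 4170 and 1958 CPM in the uninjured libraries, at 8396 and 9208 CPM at PT D1, and at 3100 and 1852 CPM at PT D7. Mt2 was at 1043 and 1632 CPM, then at 6976 and 11517 CPM, then at 2858 and 1522 CPM. The PT D1 libraries lay above all others for both genes, with a ratio of mean levels of 2.87 for Mt1 and 6.92 for Mt2 against uninjured. At PT D7 the ratio to uninjured was 0.808 for Mt1 and 1.64 for Mt2, and the libraries overlapped. These values rest on 3 and 14 uninjured cells, 4 and 14 PT D1 cells and 4 and 11 PT D7 cells.

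Activated type B cells, the stem cells that have entered the path to division, followed the same course at a lower level. Mt1 was at 134 and 237 CPM in the uninjured libraries, at 1518 and 1539 CPM at PT D1, and at 341 CPM in the one PT D7 library with such cells. Mt2 was at 403 and 1119 CPM, at 3838 and 2774 CPM, and at 1090 CPM. The PT D1 to uninjured ratio was 8.22 for Mt1 and 4.34 for Mt2, with no overlap between libraries. The uninjured libraries held 4 such cells each and PT D1 library 1 held 6, of which 1 cell gave 75.5% of the Mt1 and 77.5% of the Mt2 UMIs. In PT D1 library 2, with 19 cells, the top cell gave 29.8% and 29.6%.

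Type C cells and neuroblasts held less of both transcripts than the type B cells of the same condition. In C cells Mt1 was at 0 and 58.4 CPM in uninjured libraries, at 58.2 and 245 CPM at PT D1 and at 133 and 72.1 CPM at PT D7. The PT D1 libraries overlapped the uninjured ones. The PT D7 values lay above the uninjured ones but rest on 5 and 10 UMIs against 0 and 7, and the intervals overlap. Mt2 in C cells was at 125 and 150 CPM, at 233 and 343 CPM, and at 133 and 209 CPM. Its PT D1 to uninjured ratio was 2.09, on 8 and 14 UMIs against 3 and 18, and the intervals overlap. These libraries held 3 to 17 C cells each, and 1 cell gave 87.5% of the Mt2 UMIs in PT D1 library 1. In neuroblasts Mt1 was at 30.1 and 28.0 CPM in uninjured libraries, at 55.2 and 270 CPM at PT D1 and at 99.7 and 80.7 CPM at PT D7. The 55.2 CPM is 1 UMI in 4 cells. Mt2 in neuroblasts was at 90.2 and 28.0 CPM, at 166 and 95.3 CPM, and at 0 and 126 CPM.

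**Figure D3:**
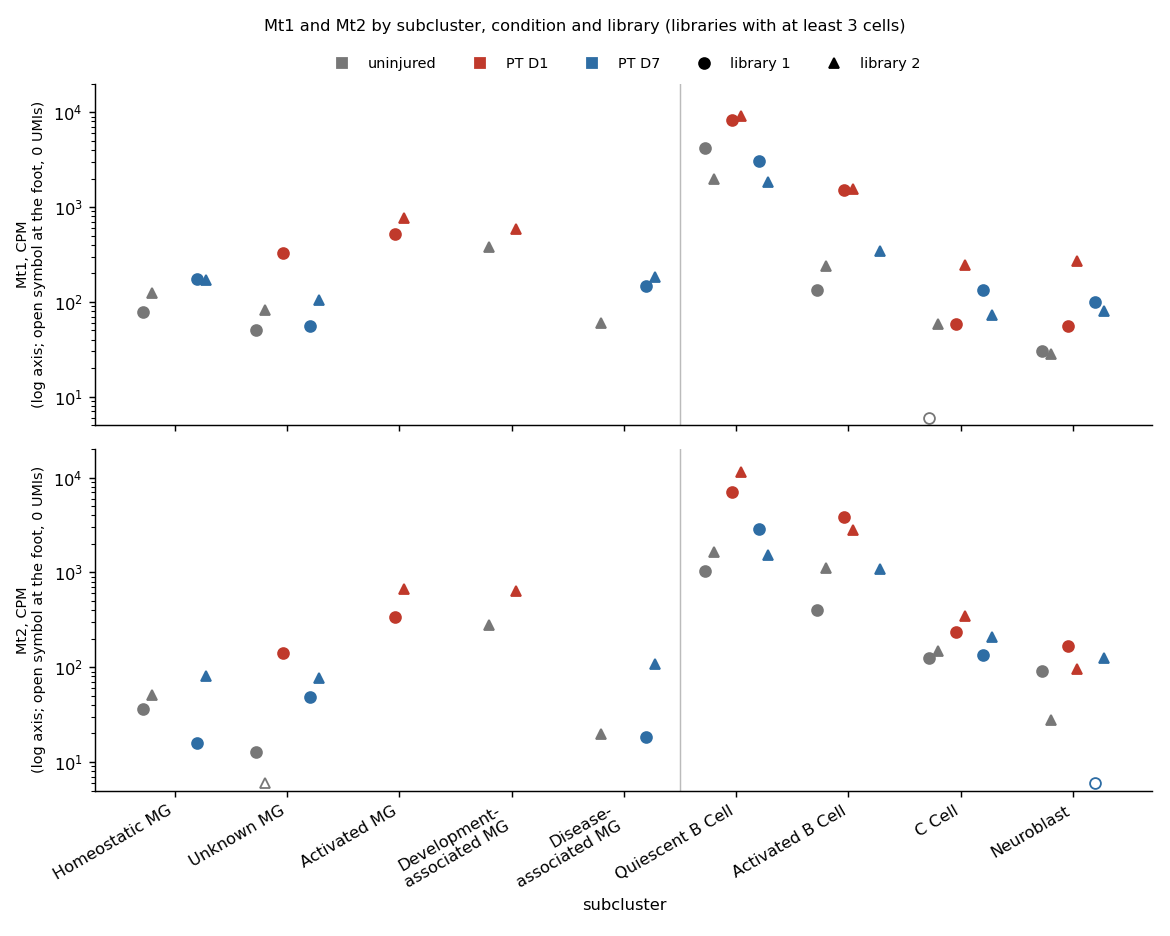
Mt1 (top) and Mt2 (bottom) in CPM, on a log axis, by subcluster, condition and library, for libraries with at least 3 cells of the subcluster. Open symbols at the foot mark 0 UMIs. Quiescent B cells stand highest, with PT D1 libraries at 8396 and 9208 for Mt1. Among the NSPC subclusters, neuroblasts and C cells stand lowest.

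The class sums of NSPCs depend on these proportions. Quiescent B cells were 22.7% of the uninjured NSPCs and gave 88.6% of their Mt1 UMIs and 61.9% of their Mt2 UMIs. At PT D1 they were 25.4% of NSPCs and gave 71.6% and 60.1%, while activated B cells were 10.7% of the uninjured NSPCs and 35.2% at PT D1, and gave 6.71% and then 26.1% of the Mt1 UMIs. With each subcluster weighted equally within a library, the PT D1 log2 ratio in NSPCs was 1.69 for Mt1 and 2.50 for Mt2. The fitted values were 2.25 and 2.91. The equal weight averages CPM without TMM scaling, so quiescent B cells, with the highest levels, dominate it. Within quiescent B, activated B and C cells and neuroblasts the ratios of mean levels were 2.87, 8.22, 5.19 and 5.6 for Mt1. For Mt2 they were 6.92, 4.34, 2.09 and 2.21. The share of the fitted change due to makeup was not tested.

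The microglia subclusters changed with condition almost entirely, so few of them could be followed from one condition to the next. Activated microglia were found only at PT D1, with 104 cells, and held Mt1 at 517 and 767 CPM and Mt2 at 335 and 664 CPM in the 2 libraries. Development-associated microglia at PT D1 came with 35 of 36 cells from library 2, which held Mt1 at 583 CPM and Mt2 at 637 CPM. These subclusters were 70.7% and 24.5% of the PT D1 microglia. Homeostatic microglia, the cells of the resting brain, had 124 uninjured cells, a single PT D1 cell and 50 PT D7 cells.

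Homeostatic microglia held Mt1 at 78.7 CPM (49.3 to 119) and 124 CPM (90.9 to 166) in the uninjured libraries. At PT D7 they held it at 176 CPM (87.9 to 315) and 171 CPM (106 to 261), on 11 and 21 UMIs. The ratio of means was 1.71, and the PT D7 intervals overlap the uninjured ones. Mt2 was at 35.8 and 51.3 CPM, then at 16.0 and 81.4 CPM, which overlap. Disease-associated microglia, found mainly at PT D7, held Mt1 at 148 and 182 CPM and Mt2 at 18.5 and 107 CPM there. The subcluster the authors left as unknown held Mt1 at 50.9 and 82.4 CPM uninjured and at 56.2 and 104 CPM at PT D7, which overlap. Its Mt2 was at 12.7 and 0 CPM uninjured, on 1 and 0 UMIs. At PT D7 its Mt2 was at 48.2 and 77.7 CPM, on 6 UMIs each, and the intervals overlap the uninjured ones. The 4 PT D1 cells of this subcluster, all from library 1, held Mt1 at 329 CPM and Mt2 at 141 CPM. At PT D7 none of these reached the level of the PT D1 subclusters. The 1 homeostatic cell at PT D1 had 22 Mt1 and 16 Mt2 UMIs among 3948.

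The share of cells with at least 1 UMI followed the levels. Thinned to 1000 UMIs a cell, 11.0% of uninjured homeostatic microglia, 42.7% of activated microglia at PT D1 and 17.3% of homeostatic microglia at PT D7 would hold an Mt1 UMI (39.5%, 88.5% and 44.0% unthinned). For Mt2 the thinned shares were 3.98%, 33.0% and 5.14%. Quiescent B cells went from 74.2% to 96.3% and 79.7% for Mt1, and neuroblasts from 2.79% to 16.0% and 10.0%. No cell type here is known to lack Mt1, so no share is a measured background. The neuroblast share is used as a reference, and it may itself hold expression. Neuroblasts had a median depth of 5699 UMIs, against 4759 for homeostatic microglia and 5303 for quiescent B cells. The Mt2 share in uninjured homeostatic microglia, 3.98%, is level with the 3.95% of uninjured neuroblasts. That reference rests on 9 UMIs in 6 of 35 cells, and uninjured unknown microglia stood lower, at 1.12% on 1 UMI. Expression of Mt2 in uninjured homeostatic microglia thus cannot be told apart from background. The uninjured microglial Mt2 level, which the fold change at PT D1 and the Mt2 share in uninjured microglia also use, rests on 12 and 23 UMIs and carries this limit. At PT D7 the thinned Mt2 shares of homeostatic, unknown and disease-associated microglia were 5.14%, 4.09% and 6.45%, below the 8.51% of neuroblasts. The PT D7 microglial Mt2 level, on 9 and 26 UMIs, and the values drawn from it thus carry the same limit. At PT D1 the neuroblast share was 11.2%, against 33.0% in activated microglia.

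Cells with both genes were counted as a description, since their number follows the 2 separate shares of cells with a UMI. Both had a UMI in 12 of 155 uninjured microglia (7.74%), in 102 of 147 at PT D1 (69.4%, where 130 held Mt1 and 115 held Mt2) and in 17 of 114 at PT D7 (14.9%). In NSPCs these counts were 24 of 75 (32.0%), 51 of 71 (71.8%) and 35 of 76 (46.1%). Among quiescent B cells of all conditions 48 of 50 held both. Over cells, which share libraries and depth, Spearman's rho of the 2 levels was 0.774 in the 50 quiescent B cells and 0.784 in the 45 activated B cells, and 0.329 in the microglia at PT D1.

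In single quiescent B cells the 2 transcripts made up as much as 3.79% of the UMIs. Their summed share of a cell's UMIs ran from 0.0821% to 0.971% with a median of 0.285% in uninjured tissue, and from 0.333% to 3.79% with a median of 1.52% at PT D1. At PT D7 it ran from 0.0761% to 0.749% with a median of 0.363%. A share of at least 1% was reached by 10 of 18 quiescent B cells and 3 of 25 activated B cells at PT D1, by no quiescent or activated B cell of the other conditions and by no microglia. Activated microglia at PT D1 had a median of 0.0738% and a highest value of 0.793%. The highest single cells held 170 Mt1 UMIs, in a quiescent B cell, and 200 Mt2 UMIs, in an activated B cell.

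**Figure D4:**
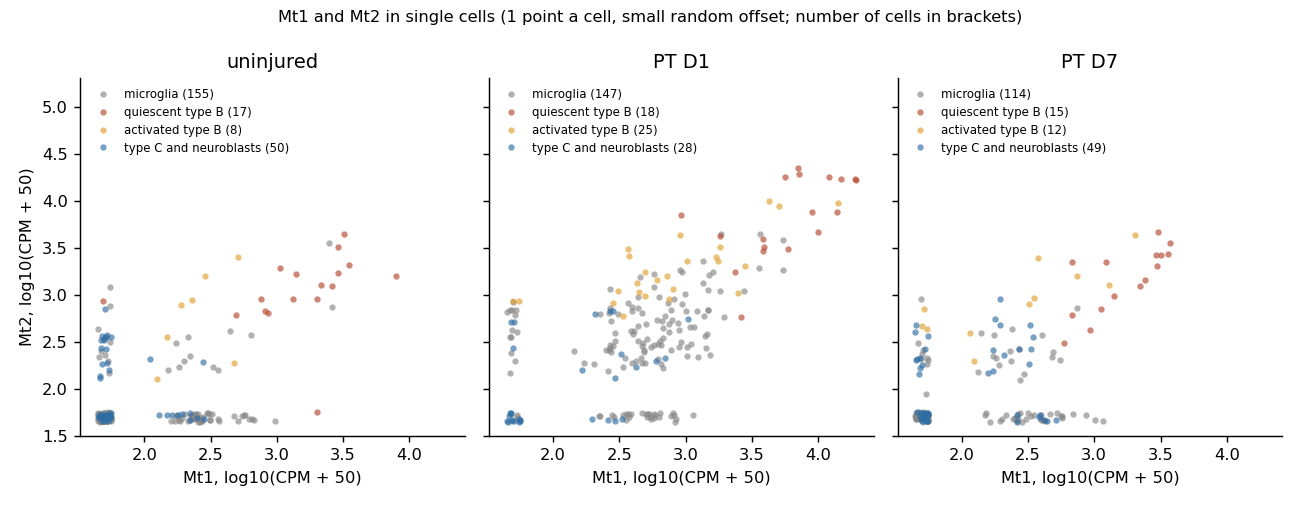
Each point is 1 cell, with Mt1 on the x axis and Mt2 on the y axis, both as log10(CPM + 50) with a small random offset. Panels are the 3 conditions and colours the cell groups. Quiescent B cells hold the upper right in every panel, and at PT D1 the microglia leave the lower left, with both genes found in 102 of 147.

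The balance of the 2 genes differed by cell type. Mt2 made up 29.7% (exact 95% interval 21.6 to 38.8) of the Mt1 and Mt2 UMIs in uninjured microglia, 45.4% (42.2 to 48.7) at PT D1 and 30.4% (22.2 to 39.7) at PT D7. By library it was 30.8% and 29.1%, then 38.6% and 48.6%, then 20.9% and 36.1%, so the PT D1 libraries lay above all others. In quiescent B cells it was 41.2% (36.6 to 45.9), 53.7% (51.5 to 55.9) and 46.4% (40.9 to 51.9), with libraries at 20.0% and 45.5%, 45.4% and 55.6%, and 48.0% and 45.1%, which overlap. In activated B cells it was 80.8% (71.9 to 87.8), 66.9% (63.9 to 69.8) and 76.2% (67.9 to 83.2). Activated B cells thus held more Mt2 than Mt1 in every library, and their Mt2 share lay above that of quiescent B cells in each of the 5 libraries that held both.

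**Figure D5:**
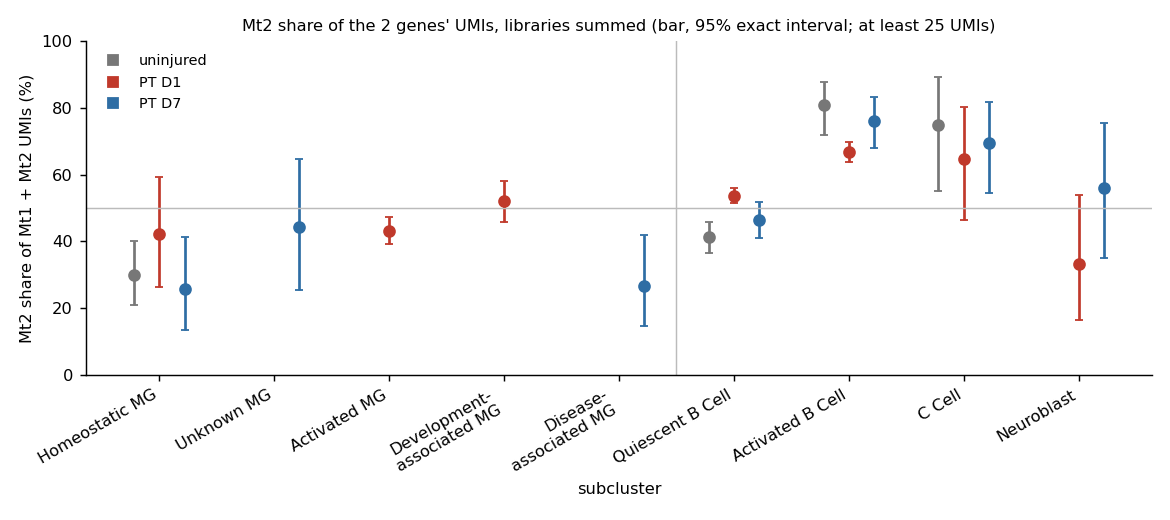
Mt2 as a percent of the summed Mt1 and Mt2 UMIs, by subcluster and condition with libraries summed, for points with at least 25 UMIs. Bars are exact 95% intervals for counting error. Activated B cells stand at 80.8%, 66.9% and 76.2% and uninjured homeostatic microglia at 29.9%.

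Mt3, the metallothionein of the nervous system, was close to absent from the counts. Its 8 UMIs were spread over 8 cells with 1 each. Of these, 4 were quiescent B cells (4 of 50, 8.0%, exact 95% interval 2.22 to 19.2), 1 an activated B cell, 1 a homeostatic microglia and 2 were cells of mixed identity. No C cell and no neuroblast held one, which for 80 neuroblasts allows a share of up to 3.75% with a UMI. By condition NSPCs held 3 UMIs uninjured, 2 at PT D1 and 0 at PT D7, where 0 of 76 cells allows up to 3.95%. Mt3 did not pass the filter on low counts in either class, so no change over time was detectable with these counts. No aligner or annotation is stated, so low expression of Mt3 and reads of it left uncounted cannot be told apart.

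Other transcripts were followed in the same sums. The 7 activation and dissociation genes with counts (among them Fos, Jun and Egr1) summed to 980 and 1299 CPM in uninjured microglia, 1068 and 2262 CPM at PT D1 and 705 and 901 CPM at PT D7, and to 387 and 483, 863 and 1173, and 497 and 389 CPM in NSPCs. In NSPCs both PT D1 libraries lay above all others, and in microglia PT D1 library 1 lay between the uninjured libraries. Their part in the Mt1 and Mt2 values was not tested. In microglia the 6 type B or astrocyte markers summed to 283 and 466 CPM uninjured, 161 and 241 CPM at PT D1 and 207 and 324 CPM at PT D7. For each UMI of Aldoc, an astrocyte and type B marker, microglia at PT D1 held 59.0 and 48.2 Mt1 and Mt2 UMIs, on only 5 and 13 Aldoc UMIs. In the quiescent B cells of the same libraries the ratio was 6.13 and 12.3, on 60 and 134 Aldoc UMIs. In uninjured libraries the same ratio was 3.9 and 2.72 in microglia (10 and 29 Aldoc UMIs) and 1.0 and 1.58 in quiescent B cells (75 and 237). Per UMI of Aldoc, Slc1a3 and Gja1 summed, it was 6.15 and 10.3 in microglia at PT D1 against 3.64 and 5.2 in quiescent B cells, and 0.494 and 0.491 against 0.67 and 0.721 in uninjured libraries. The order of the classes in uninjured libraries thus depends on the marker, and the part of type B RNA in the microglial values was not tested.

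The other genes of metal handling and of the inputs to Mt1 and Mt2 were counted in fixed lists and tested in all comparisons with edgeR over all genes. The lists were chosen with earlier results of these data known. From the same cells the authors had already named Mt1 and Socs3 in their microglial cluster of PT D1. They also listed STAT3 signaling and oxidative damage among its enriched terms. Calls in microglia at PT D1 are therefore not independent evidence of these responses. The list counts are read against the share of all genes called. In microglia at PT D1 this share was 5.7% (2.72% higher, 2.97% lower), and in NSPCs 2.12% (1.04% higher, 1.08% lower). For PT D7 against PT D1 it was 3.8% in microglia (1.69% higher, 2.1% lower) and 0.632% in NSPCs (0.224% higher, 0.408% lower). In microglia libraries of the same number deviated together, so counts from a fit with that number as a block stand beside those they change.

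Metal sensing and zinc transport had 5 of 25 genes tested in each class. In microglia 1 rose at PT D1, the zinc and iron importer Slc39a14, which went from 8.5 and 6.23 CPM to 54.7 and 38.9 CPM (TMM-scaled) and back to 4.18 and 7.42 CPM at PT D7, with a log2 fold change of 2.62 ± 0.65 (edgeR, adjusted p = 0.0376). The list's median was 0.62 against 0.04 over all genes. Without TMM scaling no gene of the list was called. Mtf1, the zinc sensor itself, was not called, at 31.1 and 20.8 CPM uninjured and 18.2 and 17.0 CPM at PT D1 (log2 fold change -0.53 ± 0.56, edgeR, adjusted p = 0.644). It was at 25.1 and 33.4 CPM at PT D7 (0.20, edgeR, adjusted p = 0.963 against uninjured, and 0.73, adjusted p = 0.554 against PT D1). In NSPCs no gene of the list was called in any comparison, and Mtf1 and the zinc exporter Slc30a1, another known MTF1 target, were too low to be tested there, as Slc30a1 was in microglia. With the block, 1 gene of the list also fell in microglia from PT D1 to PT D7, against 0 without it.

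Copper and iron handling had 10 of 16 genes tested in microglia and 8 in NSPCs. Fth1, the ferritin heavy chain that stores iron, rose in microglia at PT D1 from 824 and 843 CPM to 2060 and 1943 CPM, a log2 fold change of 1.26 ± 0.26 (edgeR, adjusted p = 0.0181), and no other gene of this list was called in either class. At PT D1 the list's median was -0.0038 in microglia and -0.05 in NSPCs. With the block, 1 gene also fell in microglia in each of the comparisons with PT D1.

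Of 14 tested antioxidant genes 3 rose in microglia at PT D1 (6 with the block, 1 without TMM) and none in NSPCs (1 without TMM). Slc7a11, the cystine importer for glutathione synthesis, rose from 2.83 and 0 CPM to 42.5 and 31.6 CPM (4.56 ± 1.18, edgeR, adjusted p = 0.046). Txnrd1, thioredoxin reductase, rose by 1.93 ± 0.45 (edgeR, adjusted p = 0.029) and Hmox1, heme oxygenase, by 1.75 ± 0.43 (edgeR, adjusted p = 0.0361). The list's median was 0.71 in microglia and 0.53 in NSPCs. No gene of the list was called at PT D7 against uninjured in either class, and 1 fell from PT D1 to PT D7 in microglia with the block.

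Of 9 tested glucocorticoid response genes 4 rose in microglia at PT D1 (3 without TMM) and 7 fell from PT D1 to PT D7, with list medians of 1.05 and -2.17. The transcription factor Klf9 went from 19.8 and 14.5 CPM to 176 and 129 CPM and to 25.1 and 7.42 CPM, with a log2 fold change at PT D1 of 3.14 ± 0.42 (edgeR, adjusted p = 0.00157). Dusp1, a MAP kinase phosphatase, rose by 2.81 ± 0.33 (edgeR, adjusted p = 0.00104) and Nfkbia, the inhibitor of NF-kappaB, by 1.17 ± 0.25 (edgeR, adjusted p = 0.0209). Ddit4, an inhibitor of mTORC1, stood at 116 and 112 CPM uninjured, 246 and 238 CPM at PT D1 and 12.5 and 18.5 CPM at PT D7, and it fell below the uninjured level at PT D7 (-2.83 ± 0.38, edgeR, adjusted p = 0.0114). With the block 2 genes of the list fell at PT D7 against uninjured. The receptor gene Nr3c1 was not called in any comparison in either class, with log2 fold changes between -0.48 and 0.43.

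In NSPCs the same list had 1 of 8 tested genes higher at PT D1, Nfkbia, at 76.6 and 116 CPM and then 246 and 256 CPM (1.27 ± 0.34, edgeR, adjusted p = 0.0475). From PT D1 to PT D7, Klf9 fell to 66.2 and 65.6 CPM (-1.82 ± 0.35, edgeR, adjusted p = 0.0105) and Tsc22d3, a glucocorticoid-induced leucine zipper protein, from 104 and 138 CPM to 13.2 and 37.1 CPM (-1.94 ± 0.45, edgeR, adjusted p = 0.0412).

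Of the STAT3 response genes, Socs3 rose at PT D1 in both classes. In microglia 3 of 9 tested genes rose at PT D1 and 3 fell from PT D1 to PT D7 (6 higher and 1 lower, then 7 lower, with the block). Socs3, the feedback inhibitor of STAT3, went from 48.1 and 54.0 CPM to 352 and 413 CPM and to 45.9 and 48.2 CPM, with a log2 fold change at PT D1 of 2.89 ± 0.28 (edgeR, adjusted p = 0.000484). Stat3 itself rose by 2.07 ± 0.32 (edgeR, adjusted p = 0.00402) and the transcription factor Cebpb by 1.39 ± 0.29 (edgeR, adjusted p = 0.0181). In NSPCs 1 of 4 tested genes rose, Socs3, from 19.2 and 21.8 CPM to 59.6 and 168 CPM (2.54 ± 0.56, edgeR, adjusted p = 0.0141), and it fell again by PT D7 to 52.9 and 11.4 CPM (-2.63 ± 0.61, edgeR, adjusted p = 0.0412).

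Hypoxia response genes went both ways in microglia at PT D1. Of 9 tested, Ldha, lactate dehydrogenase, rose from 79.3 and 78.9 CPM to 182 and 192 CPM (1.24 ± 0.31, edgeR, adjusted p = 0.0394), and P4ha1, a collagen prolyl hydroxylase subunit, fell from 142 and 135 CPM to 54.7 and 24.3 CPM (-1.83 ± 0.39, edgeR, adjusted p = 0.0206). With the block 3 rose and 1 fell, 1 rose at PT D7 against uninjured and 1 fell from PT D1 to PT D7, and without TMM only P4ha1 was called. None of the 5 tested in NSPCs was called. When 1 library was left out the number of genes that rose in microglia at PT D1 ran from 2 to 4 for the glucocorticoid list and from 1 to 4 for the STAT3 list, and it fell to 0 for the other 4 lists without either uninjured library. The Slc39a14 call was also lost without either PT D1 library or without PT D7 library 1. The 7 glucocorticoid genes that fell from PT D1 to PT D7 in microglia became 4 without PT D7 library 1, the 3 STAT3 genes became 2 without either PT D7 library and 5 without PT D1 library 2, and Ddit4 at PT D7 against uninjured was not called without either uninjured or either PT D7 library. In NSPCs no glucocorticoid gene was called at PT D1 without either uninjured library or without PT D1 library 2, and Socs3 not without uninjured library 2 or PT D1 library 2. No gene of either list was called from PT D1 to PT D7 in NSPCs without PT D1 library 2 or PT D7 library 2. DESeq2 called 2 glucocorticoid, 2 STAT3 and 1 copper or iron gene higher in microglia at PT D1 and none of the other lists.

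Mt1 and Mt2 were each among the 3 genes most like the other. Over the 9 subclusters, among 2645 genes with a mean of at least 50 CPM, the levels most like Mt1 on the log2(CPM + 10) scale were those of Spred1 (Pearson's r 0.939), Mt2 (0.936) and Klf9 (0.929), and those most like Mt2 were Psat1 (0.941), Cdc42se1 (0.94) and Mt1 (0.936). Over the 12 class and library sums, among 2742 genes, the gene most like Mt1 was Mt2 (0.98) and the reverse, followed by Rbm3 (0.97 with Mt1 and 0.968 with Mt2) and Eif5a (0.928 and 0.96). The points share libraries and cell type makeup, and these correlations are descriptions.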

How the data were processed

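Sorted SVZ cells from 6 libraries, 2 for each of 3 conditions, were sequenced with mCEL-Seq2. The authors deposited a matrix of raw UMI counts per gene and cell (34203 rows, 658 cells, with no spike-in UMI) and a cell table with class, subcluster and the percent of mitochondrial UMIs per cell. Per the labels, bcl2fastq 2.17.1.14 and the build GRCm39 were used. No aligner, annotation or strand setting is stated in the sources used here. The deposited cells held 1001 to 27321 UMIs and at most 24.49% mitochondrial UMIs, and the authors' filter was kept, with no doublet caller run here. Well numbers recur between libraries, and no cells held identical counts. Another 13 columns of the cell table were not used.

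UMIs were summed per library and class and tested with edgeR 4.0.16 (quasi-likelihood, TMM, filterByExpr, Benjamini-Hochberg, calls at 0.05), with DESeq2 1.42.0 as an alternative, in R 4.3.3. Levels are CPM of these sums. Intervals and limits for a count of 0 (3 counts) cover counting error only. Thinned shares are the expected shares at 1000 UMIs a cell. The test was tried on simulated counts in which 200 genes were changed at PT D1 against uninjured. Of genes changed 2-fold, 5.5% were called in microglia and 16% in NSPCs. Of genes changed 4-fold, 77% and 70.5% were called. At most 8.33% of the calls were false.

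The members, lists and tests were chosen with earlier results of these data known. Named genes were the members, up to 3 called genes per list and comparison with the greatest change, and Mtf1, Slc30a1 and Nr3c1 where tested. The number of the PT D7 libraries was read from the cell names and is less certain than their group. Libraries are the replicates, and with neither mice nor plates stated for them, p-values measure only the spread between libraries, and a plate effect cannot be told apart from condition. The libraries of a condition may share a plate or a pool of mice, so they are not shown to be independent animals. Libraries with the same number deviated together in microglia (r = 0.22, 0.193 and 0.262 over genes) and not in NSPCs (0.095, -0.0581 and -0.041).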

Additional observations from a re-analysis of the deposited data

Results flagged for a closer look

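The 20 cells of mixed identity, which the authors' annotation leaves as unknown or ependymal, take part in no comparison above. They were singled out because their levels at PT D1 exceeded the interval of the uninjured cells of that kind. Mt1 was at 9025 CPM in 5 cells of PT D1 library 1 and at 5280 CPM in 3 cells of library 2, against 1160 CPM in the 4 uninjured cells, all from library 2. Mt2 was at 11275 and 4336 CPM against 489 CPM. The groups hold 3 to 5 cells a library, and no test was made.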

How the results depend on the processing

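The direction at PT D1 and from PT D1 to PT D7 held for Mt1 and Mt2 in both classes under every setting tried, and no setting called either gene at PT D7 against uninjured. Numbers of called genes moved more, and the number of genes tested also differed by setting. The main edgeR fit tested 4846 genes in microglia and 4907 in NSPCs. With DESeq2, 85 of 1703 genes were called in microglia at PT D1 (276 with edgeR) and 73 of 1331 from PT D1 to PT D7 (184). In NSPCs DESeq2 called 23 of 876 at PT D1 (104), 2 of 17519 at PT D7 (4) and 6 of 17519 from PT D1 to PT D7 (31). Without the filter on low counts the numbers called were 541, 35 (8 with it) and 422 of 19178 in microglia. In NSPCs they were 8 and 69 of 17519 at PT D7 and from PT D1 to PT D7. With the replicate block they were 639, 43 and 462 in microglia and 16 in NSPCs from PT D1 to PT D7. The block changed no member's call at PT D7, with adjusted p = 0.354 for Mt1 and 0.571 for Mt2 in microglia. In NSPCs, where the numbers did not pair the libraries, the block also left no glucocorticoid gene higher at PT D1 (1 without it), 1 lower from PT D1 to PT D7 (2), and no STAT3 gene lower (1). The joint fit called 3 genes, and 0 without the replicate block. With cells thinned to 1000 UMIs the counts were 62, 1 and 44 of 919 tested genes in microglia and 12, 2 and 3 of 488 in NSPCs, for PT D1, PT D7 and PT D7 against PT D1. In that thinning the log2 fold change in microglia at PT D1 was 2.28 for Mt1 and 2.69 for Mt2, and from PT D1 to PT D7 -2.67 for Mt1. At PT D7 against uninjured it turned to -0.39 for Mt1 and -0.59 for Mt2 in microglia and to -0.094 for Mt1 in NSPCs. Over 10 further draws, added after seeing the data, these 3 values ran from -0.28 to 0.96, from -1.06 to 0.69 and from -0.66 to 0.22, with medians of 0.29, -0.18 and -0.078, so that their sign at this depth depends on the draw, and -0.39 lies outside the range of the further draws. Subclusters of at least 3 cells were also weighted equally within each library. In microglia the log2 ratios were then 2.29 for Mt1 and 2.98 for Mt2 at PT D1. At PT D7 against uninjured they were 0.31 and 0.047. Microglia were averaged over 2 subclusters in uninjured library 1 and 4 in library 2. After PT the number was 2 per library on day 1 and 3 on day 7. Uninjured library 1 and PT D1 library 2 shared no subcluster, so this setting did not hold microglial makeup equal. In NSPCs the ratios were 1.69 and 2.50 at PT D1, with all 4 subclusters in each library compared. From PT D1 to PT D7 they were -1.65 and -1.90, without activated B cells in PT D7 library 1. With cells of at most 10% mitochondrial UMIs Mt2 in microglia at PT D1 was 4.52, and this setting was not run for NSPCs, which had too few such cells. Leaving out 1 library gave in microglia 2.46 to 3.10 for Mt1 and 3.03 to 4.11 for Mt2 at PT D1, 0.42 to 1.03 and -0.13 to 1.19 at PT D7, and -2.28 to -1.81 and -3.83 to -2.34 from PT D1 to PT D7. In NSPCs it gave 1.94 to 2.51 for Mt1 and 2.63 to 3.38 for Mt2 at PT D1, -0.44 to 0.84 and 0.32 to 1.05 at PT D7, and -2.70 to -1.39 and -2.60 to -2.01 from PT D1 to PT D7. The sign at PT D7 turned for Mt2 in microglia without PT D7 library 2 (-0.13) and for Mt1 in NSPCs without PT D7 library 1 (-0.44). The class difference at PT D7 ran from -1.19 to 0.40 for Mt1 and from -0.79 to 1.16 for Mt2, turning without PT D7 library 2 (0.40 and 1.16) and for Mt2 without uninjured library 2 (0.23). The counts of called genes then ran from 45 to 538, 0 to 38 and 46 to 418 in microglia, from 39 to 229, 6 to 18 and 23 to 109 in NSPCs, and from 1 to 3 in the joint fit. Without TMM the median of all genes moved to -0.24 in microglia at PT D7 and to 0.10 in NSPCs at PT D1, and Mt1 and Mt2 in microglia at PT D7 stood at 0.45 and 0.49. Mt3 was fitted only where no filter was set, and no fold is given for it. The causes of these shifts were not tested. Few UMIs limit the Mt2 levels of microglia, uninjured and at PT D7, and all values of Mt3.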

Other observations

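At PT D7 the cells of mixed identity held Mt1 at 503 and 646 CPM and Mt2 at 195 and 442 CPM in the 2 libraries. These cells also held choroid plexus markers at a summed 29664 CPM, endothelial markers at 2307 CPM and ependymal markers at 2103 CPM over all conditions, which are markers of several cell types.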
